A study of Mus musculus with 2 samples.

Results

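Tetraspanins are small proteins that cross the membrane 4 times and gather integrins, immunoglobulin-type proteins, proteases and antigen-presenting molecules into microdomains of the plasma membrane and endosomes. The genes described here are the 7 tetraspanins *Cd9*, *Cd37*, *Cd53*, *Cd63*, *Cd81*, *Cd82* and *Cd151*, taken by name from the 54838 genes of the count matrices. CD37 and CD53 are found mainly on leukocytes, CD63 is a protein of late endosomes, lysosomes and exosomes, and CD9, CD81, CD82 and CD151 are found on many cell types. In nerve, CD9 and CD81 are also known from myelinating Schwann cells, the glia that wrap peripheral axons.

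Macrophages of the sciatic nerve were sorted as CD64+ CD45int cells from Flt3-Cre LSL-YFP fl/fl mice. In these mice Cre driven by *Flt3* turns on YFP in haematopoietic progenitors and in their progeny. Both groups carried the same alleles. They differed in YFP, so that YFP+ macrophages descended from cells that had expressed *Flt3*, while YFP− macrophages carried no such mark. The nerves of 19 male mice aged 10 to 12 weeks were pooled before the sort, so both groups came from the same mice. Each group was 1 library. With 1 library per group there was no test of YFP status and no p-value. All intervals below are 95% intervals that cover counting error only.

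Cells were barcodes with at least 500 unique molecular identifiers (UMIs, each marking 1 captured RNA molecule) and 200 genes, which gave 1045 YFP− and 4053 YFP+ cells. The YFP− cells were deeper, with a median of 2233 UMIs against 1484. All 9 macrophage markers examined were detected, the lowest at 108 in the YFP− and 111 in the YFP+ library on the counts-per-million scale (CPM, the gene's UMIs relative to all UMIs of the cells), and 98.9% of YFP− and 98.8% of YFP+ cells held at least 3 UMIs of them. No UMI of 3 of the 4 T cell markers, 3 of the 4 B cell markers or any of the 4 neutrophil markers was counted. The B cell marker that was counted, *Cd79b*, reached 57.9 CPM among YFP− cells, 4 of which held at least 3 UMIs of it. Among YFP+ cells *Cd79b* reached 53.8 CPM, and 1 cell held as many. The counted T cell marker, *Cd3d*, had levels of only 0.414 (YFP−) and 0.889 CPM (YFP+). Schwann cell markers were present, with summed levels of 711 and 656 CPM in the YFP− and YFP+ cells. Fibroblast markers summed to 23.6 and 94.6 CPM, mural markers to 10.3 and 117 CPM, endothelial markers to 12.0 and 9.93 CPM, dendritic cell markers to 72.0 and 64.3 CPM and mast cell markers to 0.414 and 0 CPM. The Schwann cell markers stood at 3352 and 5345 CPM in barcodes with 10 to 100 UMIs, taken here as a measure of free RNA, and they were highest in 1 of 8 clusters of cells, called Schwann-like here. Only 7 barcodes were shared by the cells of both libraries.

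In GRCm38, *Cd9* lies at chr6:125460266-125494791, *Cd53* at chr3:106759921-106790149, *Cd63* at chr10:128900989-128912822 and *Cd82* at chr2:93419111-93463140. *Cd37* (chr7:45233632-45239115), *Cd151* (chr7:141467392-141471473) and *Cd81* (chr7:143052739-143067934) share a chromosome. The promoters of 4 of them, 250 bases before to 50 after a RefSeq start in GRCm38.p6, are shown here for their contrasting patterns over cells. *Cd9* was concentrated in the Schwann-like cluster, *Cd53* had no UMI in it, *Cd37* is the other leukocyte member, and *Cd81* was the highest of the 7. Capitals mark GGGCGG, a GC box, and GAGGAAGT, a purine-rich motif of the kind bound by the myeloid factor PU.1, on either strand. The motifs were chosen after the sequences had been seen.

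Cd9, chr6:125494711-125495010, minus strand: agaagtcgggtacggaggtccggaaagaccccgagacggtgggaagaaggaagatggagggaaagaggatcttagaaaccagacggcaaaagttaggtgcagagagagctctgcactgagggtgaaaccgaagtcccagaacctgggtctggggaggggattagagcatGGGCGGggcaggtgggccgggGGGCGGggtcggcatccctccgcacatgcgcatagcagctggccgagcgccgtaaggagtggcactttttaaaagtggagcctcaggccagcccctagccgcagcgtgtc

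Cd37, chr7:45238790-45239089, minus strand: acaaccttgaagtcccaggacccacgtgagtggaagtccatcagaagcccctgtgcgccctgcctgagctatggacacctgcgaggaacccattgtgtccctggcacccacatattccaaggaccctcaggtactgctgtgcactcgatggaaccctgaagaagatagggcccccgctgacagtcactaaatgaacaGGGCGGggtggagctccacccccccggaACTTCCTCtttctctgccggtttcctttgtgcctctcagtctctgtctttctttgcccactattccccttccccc

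Cd53, chr3:106790100-106790399, minus strand: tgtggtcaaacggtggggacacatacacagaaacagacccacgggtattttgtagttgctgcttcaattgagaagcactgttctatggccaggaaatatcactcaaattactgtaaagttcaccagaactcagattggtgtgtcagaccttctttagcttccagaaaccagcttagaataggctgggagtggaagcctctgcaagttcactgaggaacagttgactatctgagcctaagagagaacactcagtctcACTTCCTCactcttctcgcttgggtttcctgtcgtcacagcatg

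Cd81, chr7:143052500-143052799, plus strand: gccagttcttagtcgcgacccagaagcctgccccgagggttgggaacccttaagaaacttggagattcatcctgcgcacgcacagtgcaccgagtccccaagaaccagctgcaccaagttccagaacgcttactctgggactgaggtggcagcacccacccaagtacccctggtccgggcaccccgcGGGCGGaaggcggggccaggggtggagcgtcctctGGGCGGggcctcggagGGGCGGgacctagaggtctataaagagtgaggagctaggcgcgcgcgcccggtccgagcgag

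GAGGAAGT occurred, as its reverse complement, in the windows of *Cd37* and *Cd53* and not in those of *Cd9* and *Cd81*. It was present in 3.20% of 32817 promoter windows of the same length. GGGCGG occurred 2 times in the *Cd9* window, 3 times in that of *Cd81*, 1 time in that of *Cd37* and not in that of *Cd53*, while 35.6% of all windows held it. Neither motif was found in the *Cd63* window. Of the 4 windows of *Cd82*, 1 held GAGGAAGT and 2 held GGGCGG, and of the 2 windows of *Cd151* only 1 held GGGCGG. A match of letters is a description of these windows and shows no binding.

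The order of the 7 genes was nearly the same in both libraries, with *Cd81* highest and *Cd63* next. A UMI count is not divided by gene length, since each molecule is counted once, but the efficiency of capture may still differ between genes. *Cd81*, which joins CD9 in complexes with immunoglobulin-type proteins, was at 1049 CPM (1009 to 1091) among YFP− and at 1270 CPM (1243 to 1297) among YFP+ macrophages. *Cd63* was at 838 CPM (802 to 875) and 721 CPM (701 to 742). These levels made *Cd81* and *Cd63* together the source of most tetraspanin UMIs, with 40.2% and 32.1% of the UMIs of all 7 in YFP− macrophages and 44.5% and 25.3% in YFP+ macrophages.

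*Cd53* followed, at 376 CPM (352 to 402) among YFP− and at 468 CPM (452 to 485) among YFP+ macrophages. *Cd9* was at 140 CPM (125 to 156) and 182 CPM (172 to 193), and *Cd37* at 112 CPM (99.5 to 127) and 117 CPM (109 to 126). The intervals of *Cd9* and *Cd37* overlapped narrowly in the YFP− library and stood apart in the YFP+ library. *Cd82* and *Cd151* were the lowest and did not differ from each other beyond counting error in either library. *Cd82* was at 47.6 CPM (39.3 to 57.1) and 50.5 CPM (45.3 to 56.2), and *Cd151*, a partner of laminin-binding integrins, was at 49.2 CPM (40.8 to 58.9) and 44.9 CPM (40.0 to 50.3).

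**Figure D1:**
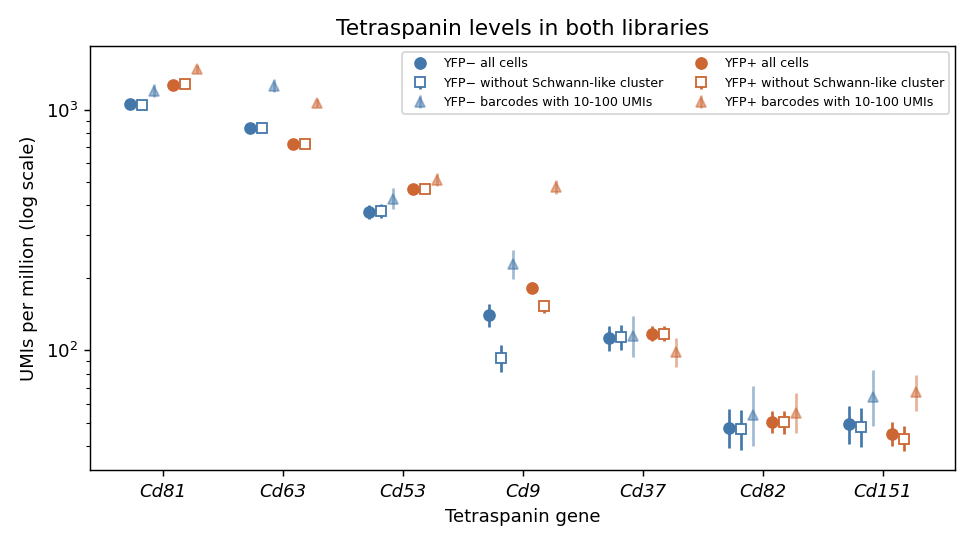
Level of each tetraspanin in CPM (log axis) in YFP− (blue) and YFP+ (orange) macrophages, with 95% Poisson intervals. Filled circles are all cells, open squares are cells outside the Schwann-like cluster and triangles are barcodes with 10 to 100 UMIs. *Cd9* alone moves visibly when the cluster is left out, from 140 to 92.6 CPM in YFP− and from 182 to 152 CPM in YFP+ macrophages.

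Per cell, tetraspanin RNA was sparse. After each cell was thinned to 500 UMIs, which left out no cell, a UMI of *Cd81* was found in 40.7% of YFP− cells (37.7 to 43.7) and 42.5% of YFP+ cells (41.0 to 44.1). For *Cd63* the shares were 32.8% (29.98 to 35.8) and 27.9% (26.5 to 29.3), and for *Cd53* 15.9% (13.7 to 18.2) and 20.2% (19.0 to 21.5). The shares of *Cd81* overlapped between the libraries, while *Cd63* was seen in a larger share of YFP− cells and *Cd53* in a larger share of YFP+ cells. *Cd9* was found in 4.88% and 6.79% of cells, *Cd37* in 6.22% and 5.48%, *Cd82* in 2.58% and 2.52% and *Cd151* in 2.30% and 1.95%. At this depth a cell held UMIs of 1.05 of the 7 genes on average in YFP− and 1.07 in YFP+ macrophages, and 31.8% and 29.4% of cells held none.

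The same RNA was present outside cells, so a UMI in a cell is not by itself proof that the cell made it. In barcodes with 10 to 100 UMIs, *Cd9* was at 228 CPM (198 to 261) in the YFP− library and at 477 CPM (447 to 508) in the YFP+ library, 1.62 and 2.61 times its level in cells. *Cd63* was 1.5 and 1.48 times as high there as in cells, *Cd151* 1.29 and 1.48 times, and *Cd37* 1.02 and 0.841 times. The share of cells with a UMI of *Cd37* was above the 5.56% and 4.80% that 500 UMIs drawn from these barcodes would give, but its intervals (4.83 to 7.86 and 4.80 to 6.22) held those values. For the other 6 the shares were below the share so drawn. These barcodes resembled the cells in most genes. The median log2 ratio of cells over barcodes was −0.07 in YFP− and −0.05 in YFP+ over 5531 genes with a mean of at least 20 CPM. Of these genes, 55.0% in YFP− and 53.8% in YFP+ were lower in cells than in these barcodes. Genes lower in cells by more than 2-fold made up 1.41% in YFP− and 0.705% in YFP+. *Cd9* was past 2-fold in the YFP+ library and not in the YFP− library. The draw takes all 500 UMIs from such barcodes, so it cannot tell RNA made by the cells from free RNA.

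*Cd9*, which is abundant on myelinating glia as well as on macrophages and platelets, was distributed unlike the other 6 genes. The cells of both libraries were clustered without the tetraspanin family. One small cluster, with *Cldn19*, *Ugt8a* and *Ncmap* among its 10 leading genes, held 8 YFP− and 23 YFP+ cells. It is called Schwann-like from its markers, whose summed level was 81249 CPM, while the macrophage markers were at 1159 CPM there and at 15248 CPM or more in each other cluster. This cluster made up 0.766% of YFP− and 0.567% of YFP+ cells.

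In the Schwann-like cluster *Cd9* stood at 10766 CPM among YFP− and at 8649 CPM among YFP+ cells, 115 and 56.5 times its level in the other cells of the library. The 8 YFP− cells held 115 of the 338 *Cd9* UMIs of their library, a share of 34.0% (29.0 to 39.3), and the 23 YFP+ cells held 206 of 1229, a share of 16.8% (14.7 to 19.0). A median cell of the cluster held 11 *Cd9* UMIs in the YFP− and 6 in the YFP+ library, with ranges of 4 to 37 and 0 to 39. The intervals of the shares treat UMIs as separate draws and do not cover this spread between cells. All 5 YFP− cells with at least 10 *Cd9* UMIs, and 6 of the 8 such YFP+ cells, were in it. A few cells therefore carried a large part of the *Cd9* signal of sorted macrophages.

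**Figure D2:**
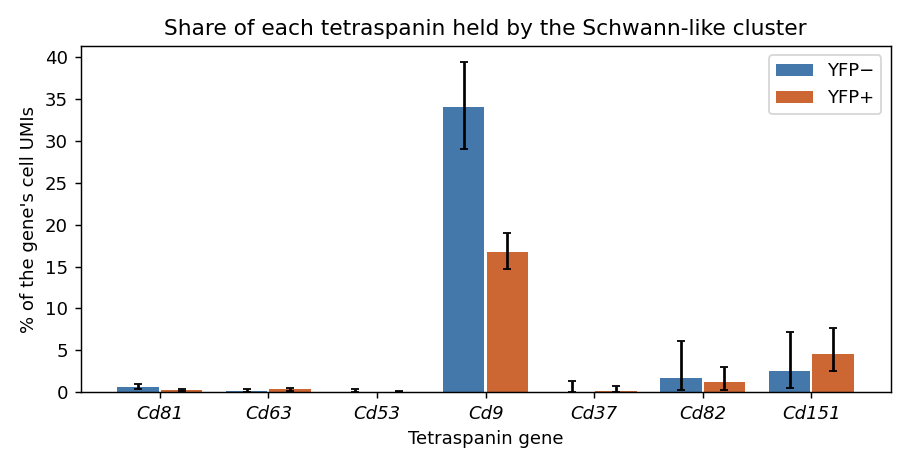
Percent of each tetraspanin's UMIs in cells that came from the Schwann-like cluster of 8 YFP− (blue) and 23 YFP+ (orange) cells, with 95% Clopper-Pearson intervals. *Cd9* reaches 34.0% and 16.8%, *Cd151* 2.52% and 4.62%, and *Cd53* is at 0 in both libraries.

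*Cd53*, a leukocyte tetraspanin, showed the reverse. It had 0 UMIs in the Schwann-like cluster in both libraries. A level of 3 UMIs per library, taken as the limit of detection, would be 1.34-fold lower than in the other cells in YFP− and 3.71-fold lower in YFP+. The upper ends of the Poisson intervals for 0 UMIs were 345 CPM in YFP− and 155 CPM in YFP+. The other cells were at 378 and 470 CPM. *Cd37*, the other leukocyte member, had 0 and 1 UMIs. With so few UMIs the depth could not show a difference for *Cd37*, since 3 UMIs would already have exceeded its level elsewhere in the YFP− library. *Cd151* was higher in the cluster, with 3 UMIs in YFP− (5.73-fold, log2 ratio 2.52, 0.24 to 4.10) and 14 in YFP+ (13.4-fold, log2 ratio 3.74, 2.86 to 4.51).

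*Cd82* was also more than 1.5-fold higher in both libraries, but with 2 and 4 UMIs its intervals held 0 (log2 ratios 1.97, −1.04 to 3.85, and 1.72, −0.14 to 3.09). Thus 3 of the 7 genes were past 1.5-fold higher in this cluster in both libraries, beside 13.0% of all genes tested. On the lower side *Cd53*, taken at 3 UMIs, was past 1.5-fold only in the YFP+ library, so none of the 7 was called lower in both, beside 4.52% of all genes. *Cd81* and *Cd63* did not pass 1.5-fold in the same direction in both libraries. *Cd81* had 15 and 20 UMIs in the cluster, and *Cd63* had 3 and 16.

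The spread of *Cd9* over cells was wider with these cells than without them. At 500 UMIs its variance was 2.93 times its mean in YFP− and 2.04 times in YFP+ macrophages, against a median of 1.04 and 1.02 for genes of like mean. Without the Schwann-like cluster the values were 1.05 and 1.202, against medians of 1.03 and 1.01. The value without the cluster was above that of 62.8% of genes of like mean in YFP− and of 98.01% in YFP+ macrophages, so it stayed high in the YFP+ library. The other 6 members lay between 0.975 and 1.16 in both libraries with all cells, near the value of 1 that counting alone gives.

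The genes whose pattern over cells was most like that of *Cd9*, by the lower of the Pearson r of log-scaled values in both libraries among 2632 genes, included *Sparc* (0.29) and *S100a6* (0.21). With the Schwann-like cluster left out they included *Ccr2*, the chemokine receptor of monocytes (0.16), and *S100a6* (0.16), and the value for *Sparc* was 0.10. For *Cd63* they were its pseudogene *Cd63-ps* (0.44), *Apoe* (0.27) and *Itm2b* (0.18). *Cd53* went with *C1qb*, *C1qc* and *C1qa*, which encode complement C1q (0.18, 0.16 and 0.16), and *Cd81* with *C1qb*, *Cd74* and *H2-Ab1* (0.24, 0.20 and 0.20). For *Cd37*, *Cd82* and *Cd151* the highest value was 0.07. These values are descriptions over cells that share a library and differ in depth, and most are weak.

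Among the 21 pairs of members, r ranged from −0.05 to 0.13 in YFP− and from −0.02 to 0.16 in YFP+ macrophages. Cells with UMIs of both genes at 500 UMIs were counted over the number that the shares give. This ratio ranged from 0 to 2.56 in YFP− and from 0.69 to 2.05 in YFP+. Pairs of the lower genes had too few cells to show whether they were close to that number. For *Cd82* with *Cd151* the shares gave 0.62 cells in YFP−. The interval of the ratio lay below 1 for no pair and above 1 for 1 pair in 1 library. That pair was *Cd9* with *Cd151* in the YFP+ library, found together in 11 cells where 5.36 were given by the shares (ratio 2.05, 1.02 to 3.67). The cells of the Schwann-like cluster, in which both genes were high, were included in all pairs.

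This comparison asks whether macrophages with and without YFP, the mark of a *Flt3*-expressing ancestor, differ in tetraspanin RNA. *Cd9*, *Cd53* and *Cd81* were higher and *Cd63* lower in the YFP+ library, with intervals that did not hold 0, and the differences were small. The log2 ratio of YFP+ over YFP− was 0.38 (0.21 to 0.56) for *Cd9*, 0.31 (0.21 to 0.42) for *Cd53* and 0.28 (0.21 to 0.34) for *Cd81*. For *Cd63* it was −0.22 (−0.29 to −0.14). *Cd37* (0.06, −0.14 to 0.26), *Cd82* (0.09, −0.22 to 0.40) and *Cd151* (−0.13, −0.43 to 0.18) had intervals that held 0. Thus 3 of 7 intervals lay above 0, beside 11.6% of all genes tested, and 1 of 7 lay below 0, beside 13.8%, a share near that of all genes. An interval leaves 0 more readily where a gene has more UMIs. *Cd9*, *Cd53*, *Cd81* and *Cd63* ranked from 106 to 898 by UMIs among the genes tested. The shares of all genes were not matched on level, so they are no like background for these genes.

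The largest of these differences, that of *Cd9*, was 1.30-fold. None of the 7 was past 1.5-fold in either direction, beside 1.54% of the 5531 genes tested that were higher and 5.77% that were lower. The median log2 ratio of the 7 was 0.09 and that of all genes tested was −0.00243. Their summed levels were 2612 and 2854 CPM (log2 ratio 0.13, 0.09 to 0.17). Within the sum, the share of *Cd63* was 32.1% (30.9 to 33.2) and 25.3% (24.7 to 25.9). That of *Cd81* was 40.2% (38.9 to 41.4) and 44.5% (43.8 to 45.2). Both RNA shares differed between the libraries beyond counting error. They are tied, since a lower share of a gene raises those of the others, and UMIs of *Cd63-ps* were not counted in them.

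Leaving out the Schwann-like cluster changed *Cd9* and hardly touched the others. *Cd9* was then at 92.6 CPM (80.9 to 106) among YFP− and at 152 CPM (143 to 162) among YFP+ macrophages, a log2 ratio of 0.71 (0.50 to 0.92) or 1.64-fold, and 1 of 7 genes was past 1.5-fold higher beside 1.66% of all genes. The other 6 moved by less than their intervals. *Cd9* had a UMI in 4.15% (3.02 to 5.55) of these YFP− cells and 6.33% (5.60 to 7.12) of these YFP+ cells at 500 UMIs.

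**Figure D3:**
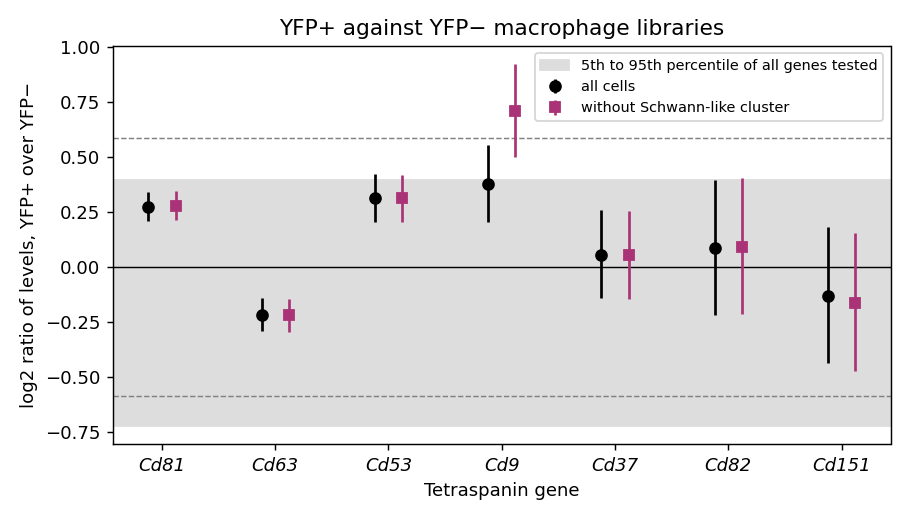
Log2 ratio of the level in YFP+ over YFP− macrophages for each tetraspanin with 95% binomial intervals, in all cells (black circles) and outside the Schwann-like cluster (purple squares). The grey band spans the 5th to the 95th percentile of all genes tested, from −0.72 to 0.39, and dashed lines mark 1.5-fold. *Cd9* outside the cluster, at 0.71, is the only point above the band.

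Free RNA also differed between the libraries for this gene, with 228 and 477 CPM in barcodes with 10 to 100 UMIs. If free RNA of the composition of those barcodes made up 10% of the UMIs in both libraries, the log2 ratio of *Cd9* over all cells after its removal would be 0.20. At 30% it would be reversed, at −0.86. The Schwann cell markers stood at 3352 and 5345 CPM in those barcodes, against 711 and 656 CPM in cells. Free RNA at 30% would thus hold more of these markers than the cells did. The levels in cells include the Schwann-like cluster, at 81249 CPM. In the other clusters, over both libraries together, these markers were at 324 to 417 CPM. Free RNA at 10% in the YFP+ library would also hold more than that. The amount of free RNA was not measured. The low barcodes of the 2 libraries also differed beyond their intervals for the other 3 genes with an interval on 1 side of 0, in the direction seen in cells. *Cd81* was at 1197 and 1474 CPM in them, *Cd53* at 427 and 511 CPM and *Cd63* at 1258 and 1065 CPM. After removal of 30% the log2 ratios would be 0.26 for *Cd81*, 0.34 for *Cd53* and −0.20 for *Cd63*.

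*Cd63* has a further limit. Reads of *Cd63* and *Cd63-ps* can be shared, as the longest run of bases common to their annotated transcripts was 253 and 46.9% of the 50-base windows of *Cd63-ps* were found in *Cd63*. *Cd63-ps* was listed at 303 CPM among YFP− and at 125 CPM among YFP+ macrophages, a log2 ratio of −1.27 (−1.41 to −1.12). Summed, *Cd63* and *Cd63-ps* were at 1141 and 847 CPM, with a log2 ratio of −0.43 (−0.50 to −0.36). The direction was the same with and without the pseudogene, and the difference was larger with it. How reads that match both genes were counted or dropped was not tested.

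Depth bears on the same comparison, as YFP− cells had more UMIs. Cells outside the Schwann-like cluster were compared in 4 classes of depth (500, 1000, 2000 and 4000 UMIs as the lower limits). *Cd63* was lower in YFP+ cells in all 4, with intervals below 0 in 3. *Cd81* was higher in 3 of 4, each with an interval above 0, and its log2 ratio in the shallowest class was −0.12 (−0.38 to 0.15). *Cd53* and *Cd9* were each higher in 3 of 4, with intervals above 0 in 2, and ranged from −0.19 to 0.41 and from −0.20 to 1.10. No interval of *Cd37*, *Cd82* or *Cd151* was on 1 side of 0 in any class.

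Beside the Schwann-like cluster, 7 clusters were found, of which 4 are described by their genes. A *Sirpb1c*-led cluster with *Il1b*, *Ccl4* and *Ccr2* among its leading genes held 41 YFP− and 475 YFP+ cells. A *Cxcl2*-led cluster with *Egr3* and *Atf3*, genes of the immediate early response, held 77 and 427. A *Myh11*-led cluster held 90 YFP− and 193 YFP+ cells. Over both libraries together it held smooth muscle RNA (mural markers 1327 CPM) with macrophage markers (18288 CPM). A macrophage gene list with *Fcna*, *Cd209d* and *Cd209f* was also highest in it, so its leading gene does not by itself name its cells. Most mural RNA came from YFP+ cells. Over all YFP− cells mural markers summed to 10.3 CPM, with no UMI of *Myh11* and 1 cell with at least 3 mural UMIs. Over all YFP+ cells they summed to 117 CPM, with 15 such cells. A cycling-like cluster led by *Hist1h2ap*, *Nusap1* and *Birc5* held 7 and 54 cells. The monocyte-like and interferon gene lists were both highest in the Schwann-like cluster, so neither named a macrophage cluster of its own. Values below leave out the Schwann-like cluster on both sides.

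*Cd9* was highest in the *Sirpb1c*-led and cycling-like clusters of both libraries. In the *Sirpb1c*-led cluster it was at 263 CPM among YFP− and at 257 CPM among YFP+ cells against 84.5 and 135 CPM in the other cells, log2 ratios of 1.63 (1.02 to 2.19) and 0.92 (0.70 to 1.13). In the cycling-like cluster it was at 331 and 271 CPM (log2 ratios 1.89, 0.96 to 2.69, and 0.85, 0.35 to 1.31). The YFP− value there rested on 13 UMIs in 7 cells. The ratios of *Cd9* in this cluster were not examined under other cluster settings, nor were any ratios in the *Sirpb1c*-led and *Myh11*-led clusters. The *Sirpb1c*-led and cycling-like clusters were the only 2 in which any member was past 1.5-fold higher in both libraries. This was 1 of 7 in each, beside 2.01% of all genes in the *Sirpb1c*-led and 9.58% in the cycling-like cluster.

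*Cd63* was lowest in the cycling-like cluster, at 382 CPM among YFP− and at 396 CPM among YFP+ cells, and passed 1.5-fold lower in both libraries (log2 ratios −1.15, −1.99 to −0.42, and −0.88, −1.28 to −0.50). In the *Sirpb1c*-led cluster its log2 ratios were −0.44 (−0.81 to −0.10) and −0.75 (−0.90 to −0.61), and it did not pass 1.5-fold in both, so none of the 7 was called lower there, beside 5.79% of all genes. *Cd37* was also past 1.5-fold lower in the cycling-like cluster in both libraries, but on 2 and 9 UMIs, with intervals that held 0 (−1.15, −4.01 to 0.70, and −0.91, −2.02 to 0.01). Thus 2 of 7 genes were past 1.5-fold lower there, beside 5.15% of all genes. With 1000 instead of 2000 variable genes the cluster chosen by the cycling genes gave log2 ratios of −0.21 and −0.07 for *Cd63* and 0.16 and 0.01 for *Cd37*, against all other cells.

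*Cd53* and *Cd81* were both lower in the *Myh11*-led cluster in each library. *Cd53* was at 242 CPM in YFP− (log2 ratio −0.68, −1.14 to −0.26) and 325 CPM in YFP+ cells (−0.55, −0.83 to −0.28). *Cd81* was at 691 CPM (−0.64, −0.90 to −0.39) and 900 CPM (−0.52, −0.69 to −0.36). All 4 intervals lay below 0, and neither gene was past 1.5-fold in both libraries. None of the 7 was called in this cluster, beside 4.43% of all genes higher and 4.12% lower. Over both libraries together, mural markers reached 1327 CPM in this cluster and at most 14.8 CPM in the other clusters outside the Schwann-like one. Fibroblast markers reached 881 CPM against at most 36.5 CPM, and endothelial markers 73.1 CPM against at most 7.99 CPM. Over all YFP− cells the mural, fibroblast and endothelial markers summed to 10.3, 23.6 and 12.0 CPM. Over all YFP+ cells they summed to 117, 94.6 and 9.93 CPM. The part of RNA of these cell types in the lower levels was not tested.

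**Figure D4:**
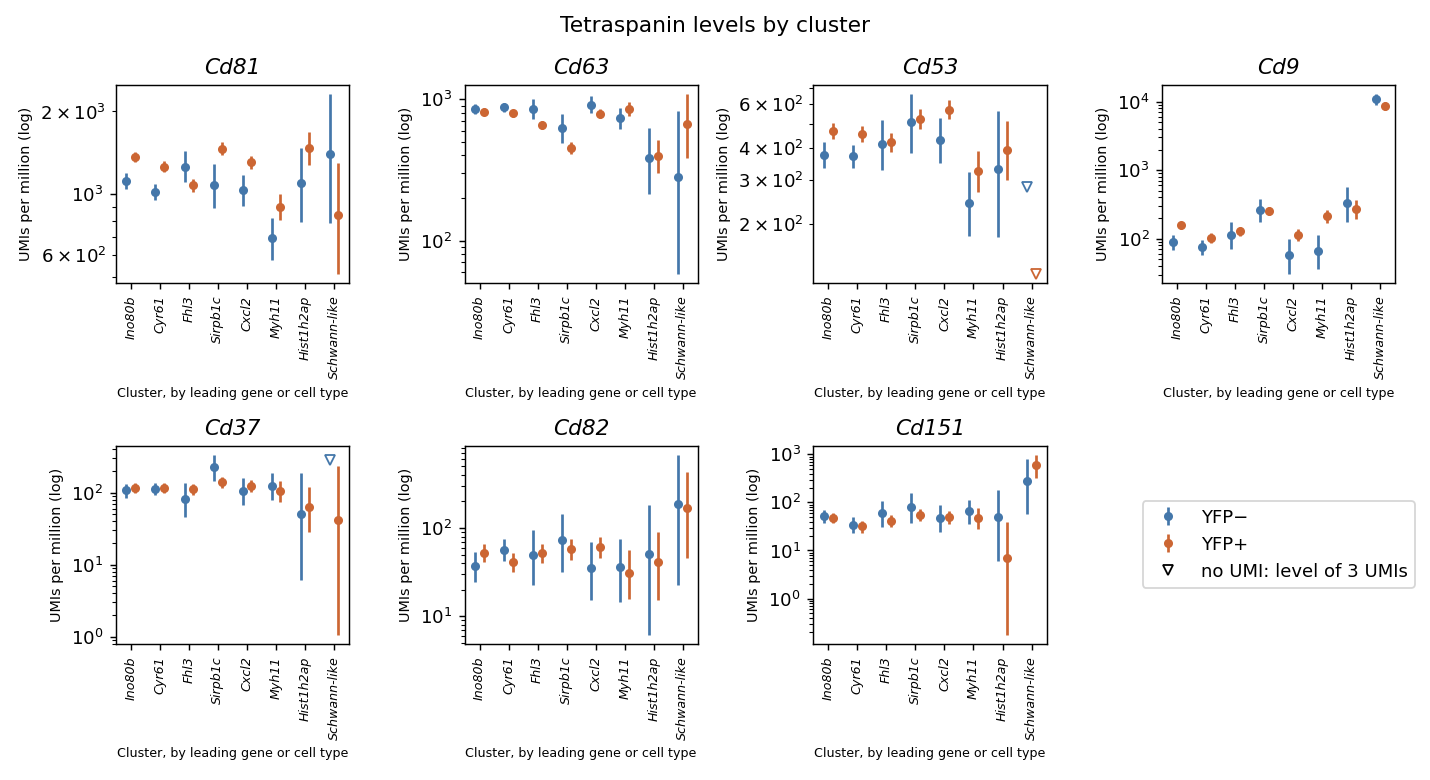
Level of each tetraspanin in CPM (log axes) in 8 clusters named by their leading gene or cell type, in YFP− (blue) and YFP+ (orange) cells with 95% Poisson intervals. Open triangles mark the level of 3 UMIs where none was counted. *Cd9* is near 10766 and 8649 CPM in the Schwann-like cluster and at 331 CPM or less elsewhere, while *Cd53* has no UMI there.

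Within clusters, YFP+ was compared with YFP− cells again. *Cd53* was higher in YFP+ cells in all 7 clusters outside the Schwann-like one, with log2 ratios from 0.02 to 0.42 and intervals above 0 in 3. *Cd81* was higher in 6 of these 7, with intervals above 0 in 5, and was lower in the *Fhl3*-led cluster, the shallowest of the 7 with a median of 982.5 UMIs (−0.23, −0.43 to −0.02). *Cd9* was higher in 5 of these 7 with intervals above 0 in 4, and not in the *Sirpb1c*-led (−0.04, −0.59 to 0.57) or the cycling-like cluster (−0.29, −1.22 to 0.74). *Cd63* was lower in YFP+ cells in 5 of the 8 clusters and higher in 3, with intervals below 0 in 3 and above 0 in none. *Cd37* was lower in YFP+ cells of the *Sirpb1c*-led cluster (−0.71, −1.33 to −0.03), the only cluster in which its interval lay on 1 side of 0.

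Of 26 further genes of the tetraspanin family, 24 were in the files and 6 had a mean of at least 20 CPM. The highest were *Tspan3* (91.4 and 81.5 CPM in YFP− and YFP+), *Tspan31* (62.9 and 66.8 CPM) and *Tspan13* (45.5 and 64.3 CPM), all below *Cd37*. *Tspan13* had the largest log2 ratio of the 6, 0.49 (0.19 to 0.80), and was the only one whose interval did not hold 0. Of all genes tested, 11.6% had an interval above 0 and 13.8% had one below 0. None of the 6 was past 1.5-fold, beside 1.54% of all genes higher and 5.77% lower. The median log2 ratio of the 6 was 0.18.

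Of 30 genes whose proteins join tetraspanin complexes, carry integrin or vesicle functions, or present antigen, 22 had a mean of at least 20 CPM. *Cd74*, the invariant chain, and the MHC class II genes *H2-Ab1* and *H2-Aa* were the highest, at 22091, 6569 and 6190 CPM in YFP− and 29333, 8588 and 7854 CPM in YFP+ macrophages. Their log2 ratios were 0.41, 0.39 and 0.34, with intervals above 0. *Vcam1*, the adhesion molecule bound by the integrin ITGA4, was the only partner past 1.5-fold, at 60.0 CPM among YFP− and at 31.1 CPM among YFP+ macrophages (log2 ratio −0.92, −1.23 to −0.62). This is 1 of 22 lower, a share near the 5.77% of all genes tested. *Itgb1*, the integrin chain bound by several tetraspanins, was at 168 and 169 CPM (0.01, −0.15 to 0.17). *Itga4* and *Itga6* had log2 ratios of 0.22 and 0.15 with intervals that held 0. The median over the 22 partners was 0.17.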

How the data were processed

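Both libraries of sciatic nerve macrophages were used. The authors deposited unnormalised UMI counts for every gene and barcode, obtained from 10x Chromium v2 libraries with cellranger and the GRCm38 genome. The submitters' processing notes name Cell Ranger 3.0.2 and Seurat 2.2.0. The release of the gene annotation is not given in the sources used here, and the counts had been neither normalised nor filtered for cells.

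Counts were analysed with Python 3.11.15, numpy 2.4.6, scipy 1.17.1, pandas 2.3.3 and matplotlib 3.10.9. Levels are CPM of counts summed over cells, with exact Poisson intervals. A pseudocount of 1 CPM was added before log2 ratios were taken, their intervals are exact binomial ones, and shares use Clopper-Pearson intervals, all at 95%. A gene was tested when its mean was at least 20 CPM, and 3 UMIs were taken as the floor, or 1.24 and 0.445 CPM for the YFP− and YFP+ libraries. Totals were 2418044 and 6747554 UMIs. Clustering used scikit-learn 1.9.0, leidenalg 0.10.2, igraph 0.11.9, anndata 0.12.19 and scanpy 1.11.5 with counts scaled to 10000 and log-transformed, with 2000 variable genes, 20 principal components, 20 neighbours, a Leiden resolution of 0.8 and seed 0. Scrublet marked 3 YFP− and 0 YFP+ cells, so its threshold did not work, and doublets were kept. Scripts were tested on simulated data.

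The members and gene lists were chosen with earlier results of these data known. The genes named are the 7 tetraspanins, in each other list the 3 highest and those past 1.5-fold, and the 3 genes most like each member with a mean of at least 50 CPM, except that some genes are not reported here. *Itgb1*, *Itga4* and *Itga6*, and the leading genes of clusters, were chosen after their values were seen. The fit without the Schwann-like cluster, the removal of 30% free RNA, the sum with *Cd63-ps* and leaving out shared barcodes were also added then.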

Additional observations from a re-analysis of the deposited data

Results flagged for a closer look

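Barcodes with over 100 and under 500 UMIs, which entered no comparison, also held tetraspanin RNA above the limit that a count of 0 allows. *Cd9* was at 619 CPM in the YFP− and at 765 CPM in the YFP+ library there, above its level in cells beyond the intervals in both. *Cd151* was at 101.3 and 99.8 CPM, above its level in cells, with intervals that overlapped in the YFP− and not in the YFP+ library. *Cd81* was at 934 and 1171 CPM, *Cd63* at 743 and 698 CPM, and *Cd53* at 304 and 366 CPM. *Cd37* was at 113 and 112 CPM, and *Cd82* at 56.3 and 68.9 CPM, above its level in cells but with overlapping intervals in both libraries. What these barcodes hold was not tested.

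The difference of *Cd81* between YFP+ and YFP− cells went in opposite directions in different clusters, with intervals on opposite sides of 0. The log2 ratio of YFP+ over YFP− was 0.29 in the *Ino80b*-led cluster, 0.31 in the *Cyr61*-led, 0.44 in the *Sirpb1c*-led, 0.34 in the *Cxcl2*-led and 0.38 in the *Myh11*-led cluster, and −0.23 in the *Fhl3*-led cluster. The *Fhl3*-led cluster held 90 YFP− and 1088 YFP+ cells. The difference between clusters was not tested, since each library is 1 sample.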

How the results depend on the processing

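The log2 ratio of *Cd9* between YFP+ and YFP− cells was the value that depended most on the processing. It was 0.57 with a minimum of 1000 UMIs per cell, 0.10 with cells weighted equally, 0.20 after removal of 10% free RNA and 0.61 without cells holding RNA of other cell types. Among alternatives chosen after seeing the data it was 0.71 without the Schwann-like cluster and −0.86 after removal of 30% free RNA. Free RNA at 30% would hold more Schwann cell marker RNA than the cells did. At 10% in the YFP+ library it would hold more than the clusters outside the Schwann-like one did. The level of *Cd9* in YFP− cells was 120 CPM with the minimum of 1000 UMIs. Thinning to 500 UMIs gave log2 ratios of −0.20 for *Cd37* and 0.14 for *Cd81*, and shares of the 7 genes of 4.84% for *Cd37* in YFP− cells and of 16.9% and 43.6% for *Cd53* and *Cd81* in YFP+ cells. With cells weighted equally the ratios of *Cd63* and *Cd81* were −0.31 and 0.20, and with the UMIs of *Cd63-ps* added, also chosen after seeing the data, that of *Cd63* was −0.43. The ratios of *Cd53* stayed between 0.23 and 0.35 over 12 alternatives.

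Without thinning, shares of YFP− and YFP+ cells with a UMI were 14.0% and 17.9% for *Cd9*, 20.9% and 17.1% for *Cd37*, 50.9% and 47.7% for *Cd53*, 74.4% and 58.2% for *Cd63*, 78.5% and 74.4% for *Cd81*, 10.1% and 7.80% for *Cd82*, and 9.38% and 6.83% for *Cd151*. In clusters picked by 7 gene lists and compared with all other cells, the Schwann-like ones included, 6 pairs were past 1.5-fold in both libraries. Of these, *Cd9*, *Cd82* and *Cd151* were higher in the Schwann-like cluster, beside 13.0% of all genes. *Cd37* and *Cd63* were lower in the cycling cluster, and *Cd9* in the early response cluster. Without the Schwann-like cells, 5.15% of all genes were lower in the cycling cluster. The log2 ratios of *Cd9* in the early response cluster were then −0.74 and −0.46, past 1.5-fold only in YFP−. Without cells holding RNA of other cell types, which left no cell in the Schwann-like cluster, 2 pairs were past 1.5-fold. With 1000 variable genes the log2 ratios of *Cd37* in the cycling cluster were 0.16 in YFP− and 0.011 in YFP+ cells. At Leiden resolution 0.4 the early response genes picked the Schwann-like cluster, where the log2 ratios of *Cd9* were 6.85 and 5.82. The causes of these shifts were not tested. No paired analysis was possible because each group is 1 library. With 1 library per group no spread between animals was measured, and the intervals of *Cd82* held 0 in each of the 8 clusters.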

Other observations

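*Tspan32*, a tetraspanin of blood cells below the mean of 20 CPM needed for the comparison, had 11 UMIs in YFP− and 116 UMIs in YFP+ macrophages, or 4.55 CPM (2.27 to 8.14) and 17.2 CPM (14.2 to 20.6). Its log2 ratio of 1.71 (0.94 to 2.52) was larger than that of any of the 7 tetraspanins, and it was singled out after its values were seen.

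In cells with 1000 to under 2000 UMIs outside the Schwann-like cluster, *Cd9* was at 56.5 CPM among YFP− and at 122 CPM among YFP+ macrophages. In those with 2000 to under 4000 UMIs it was at 84.4 and 175 CPM. In the shallowest class it was at 146 and 127 CPM (log2 ratio −0.20, −0.96 to 0.65). In the deepest class it was at 157 and 203 CPM (0.36, −0.15 to 0.89), so both of these intervals held 0.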
